A study of Mus musculus with 6 samples.

Results

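Neat1, Malat1, Sfpq, Nono, Pspc1, Rbm14 and Tardbp, which encode 2 nuclear long noncoding RNAs and 5 RNA-binding proteins of nuclear bodies, were followed in mouse macrophages after siRNA against Nop16. The 7 genes were matched by symbol to 7 Ensembl identifiers among the 55401 genes counted. They were chosen with the results of this same comparison known, so their differences between the groups are given as a description with no test.

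The 6 libraries came from RAW264.7, a mouse macrophage line from ascites of a tumour induced by Abelson murine leukemia virus. Of these, 3 libraries were titled as Nop16 siRNA, with the genotype tag Nop16 KD, and 3 as control siRNA, with the genotype tag WT. All 6 carry the treatment tag "no". The 1 treatment text given for every sample describes siRNA for Nop16 at 20 nM for 3 days with Lipofectamine RNAiMAX. Neither a control siRNA nor its transfection is described in the sources used here, so a response to transfection and a response to Nop16 siRNA cannot be told apart. NOP16 is a nucleolar protein of ribosome assembly, and the series set out to learn its function in macrophages. The labels do not say that replicates came from separate cultures, so the errors and p-values below cover the spread among these samples alone, and that spread may be technical.

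Paraspeckles are nuclear bodies built on the long isoform of Neat1, which acts as their scaffold. SFPQ, NONO and PSPC1 form the DBHS family (Drosophila behaviour, human splicing), whose dimers coat and stabilise that RNA, while RBM14 helps to assemble the body through its prion-like domain. TDP-43, the product of Tardbp, binds UG-rich RNA and, in human cells, promotes use of the poly(A) site that gives the short Neat1 isoform. Malat1 lies next to Neat1 on the chromosome and its RNA resides in nuclear speckles, bodies rich in splicing factors. In human cells exposed to a mimic of viral RNA, NEAT1 was reported to increase and to draw SFPQ away from the promoter of a chemokine gene.

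The 3' ends of Neat1 and Malat1 are shown because they bear on what a poly(A)-selected library holds. The long Neat1 isoform and mature Malat1 carry no poly(A) tail. RNase P cuts each precursor just after a genomically encoded A-rich tract, which folds with U-rich stretches upstream into a triple helix. The short Neat1 isoform is cleaved and polyadenylated like an mRNA. Bases are from GENCODE release 21 transcripts on GRCm38, 120 bases each, written 5' to 3' as DNA. Capitals mark the letters TTTCTTTT, GCTTTT and AAAGCAAAA of the U-rich and A-rich stretches, or the poly(A) signal AATAAA.
Neat1 long isoform, last bases, chr19:5824708-5824827, minus strand: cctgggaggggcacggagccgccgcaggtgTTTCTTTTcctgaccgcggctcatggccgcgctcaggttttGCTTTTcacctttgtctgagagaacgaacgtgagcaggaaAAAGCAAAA
Malat1, bases up to its A-rich tract, chr19:5795982-5796101, minus strand: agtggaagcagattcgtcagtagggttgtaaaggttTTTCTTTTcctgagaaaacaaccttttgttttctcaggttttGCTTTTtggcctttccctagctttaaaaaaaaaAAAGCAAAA
Neat1 short isoform, last bases, chr19:5842307-5842426, minus strand: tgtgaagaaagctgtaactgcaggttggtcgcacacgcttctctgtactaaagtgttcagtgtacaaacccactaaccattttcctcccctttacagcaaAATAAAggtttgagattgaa
Malat1, last annotated bases, chr19:5795690-5795809, minus strand: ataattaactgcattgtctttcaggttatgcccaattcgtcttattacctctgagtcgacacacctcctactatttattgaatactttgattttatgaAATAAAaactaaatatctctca

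The same U-rich and A-rich letters were searched for in both RNAs and were found in each. The annotated long Neat1 isoform ended on AAAGCAAAA, and the Malat1 window was cut to end on the same letters. Malat1 was annotated for a further 292 bases, up to a site with AATAAA. The 56-base gene Gm27702, which begins at the base after the annotated end of Neat1, had 0 counts in all 6 libraries. How much of each isoform the poly(A) selection kept cannot be read from counts per gene.

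The longest TG run in Neat1 is shown as the kind of sequence that TDP-43 binds. It lay in the part that the short isoform lacks, at bases 19429 to 19452 of 20771, and is in capitals.
Neat1 long isoform, longest TG run, chr19:5825997-5826080, minus strand: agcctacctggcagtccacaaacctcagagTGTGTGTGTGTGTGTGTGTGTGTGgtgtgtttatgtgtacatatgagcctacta

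TGTGTG, counted with overlaps on the RNA strand, occurred 48 times in the long isoform, or 2.31 times per kb. That density was reached by 8.4% of the 24356 annotated transcripts of at least 3000 bases, whose median was 0.578 per kb. A run of 24 bases or more was present in 5.68% of them. These transcripts were not matched to Neat1 for length, and a longer transcript has more room for a long run. The run in Neat1 also supplies some of the 48 matches, so the density and the run are not independent. The short isoform held 3 such matches (0.999 per kb) and Malat1 3 (0.43 per kb), and the longest run in each was 6 bases. These are letters in the transcripts, not measured binding.

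Total counts were 15601477 to 18635089 in Nop16 siRNA libraries and 19778237 to 23061922 in control siRNA libraries. Nop16 RNA in Nop16 siRNA cells was 22.4% of that in control siRNA cells (95% interval 19 to 26.4%), a fall. It had 61, 72 and 84 counts in Nop16 siRNA libraries, against 388, 437 and 402 in control siRNA libraries (log2 fold change -2.16, SE 0.12, edgeR adjusted p = 2.94e-23). Of 14269 genes tested, 45.4% passed an adjusted p of 0.05, 23% higher and 22.4% lower. The median log2 fold change was 0 and the middle 50% of genes lay between -0.22 and 0.20. In 52.5% of genes the 3 Nop16 siRNA libraries did not overlap the 3 control siRNA libraries. All 6 macrophage markers listed were detected, and their summed level was 7190 to 7570 CPM (TMM-scaled counts relative to library size) in Nop16 siRNA libraries against 4610 to 4880 CPM in control siRNA libraries. Lyz2 contributed most to the difference between these sums, at 2930 ± 185 CPM in Nop16 siRNA libraries against 1140 ± 153 CPM in control siRNA libraries (SD, n = 3 each). In control siRNA libraries Csf1r, at 1430 CPM, was above Lyz2. In all, 4 of the 6 rose, 1 fell and Adgre1 stood at 7.86 ± 0.762 CPM in Nop16 siRNA cells against 7.81 ± 0.507 CPM in control siRNA cells. Summed markers of epithelial, fibroblast, T or NK, B and neutrophil cells were each at most 1.42 CPM in Nop16 siRNA libraries and 1.81 CPM in control siRNA libraries, with 2 of 4 epithelial (Krt8, Krt18), 2 of 4 fibroblast (Col1a2, Dcn), 3 of 4 T or NK (Cd3e, Cd8a, Ncr1) and 1 of 4 neutrophil markers (S100a9) at 0. The part of the macrophage markers' shift in the values below was not tested.

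The 2 long noncoding RNAs were higher in Nop16 siRNA cells and the 5 protein genes were lower. All 7 genes passed the filter on low counts and lay past the threshold used across all genes, and in none did the groups overlap. Because the 7 were selected on these same counts, nothing is read from those counts against the 45.4% of all genes past the threshold and the 52.5% without overlap. For the same reason, a member that keeps or loses the threshold in another fit is a description and no test of that gene. In bulk RNA, fewer cells that express a gene and less RNA per cell cannot be told apart. Values are also relative to each library's total, so a change in total RNA per cell is not seen.

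**Figure D1:**
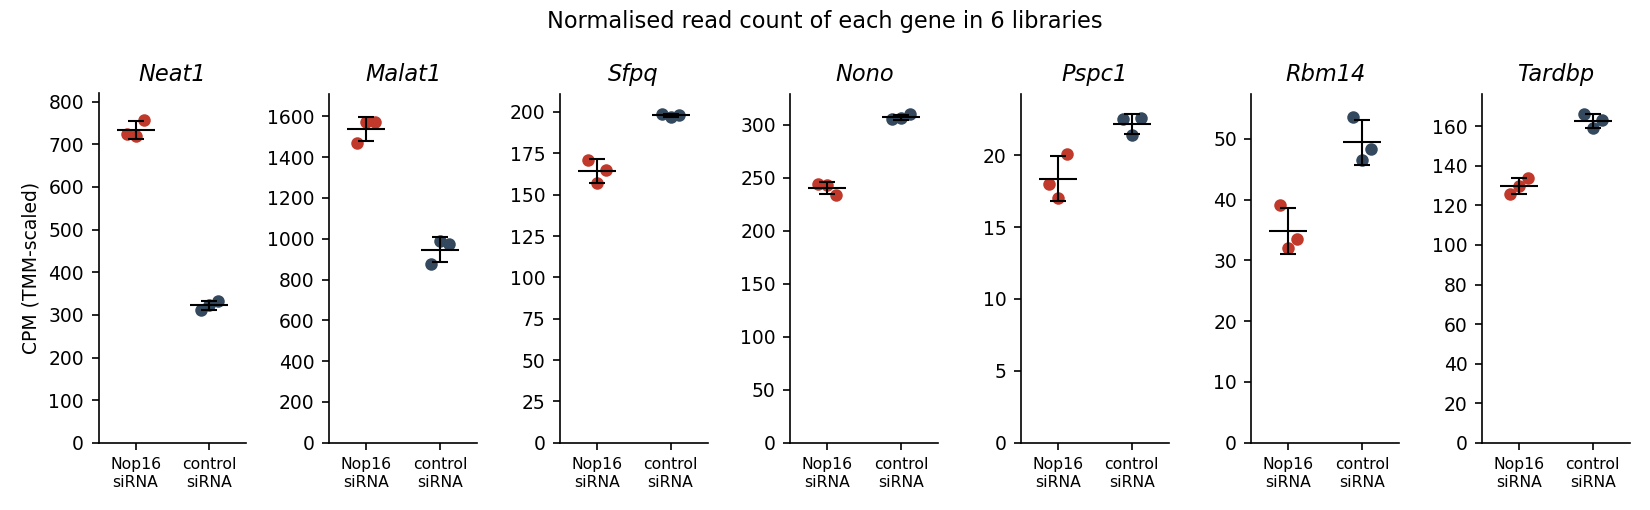
Normalised read count (CPM, TMM-scaled) of the 7 genes in 3 Nop16 siRNA libraries (left in each panel) and 3 control siRNA libraries (right), with mean and SD. Neat1 and Malat1 lie higher in the Nop16 siRNA libraries, the 5 protein genes lie lower, and no panel shows an overlap between groups.

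Neat1 (ENSMUSG00000092274) is annotated at chr19:5824708-5845478 on the minus strand of GRCm38, with 20771 exonic bases. It had 725, 720 and 758 CPM in Nop16 siRNA libraries, against 312, 323 and 332 CPM in control siRNA libraries. Every Nop16 siRNA library stood far above every control library. The mean was 734 ± 20.5 CPM in Nop16 siRNA cells and 322 ± 9.82 CPM in control siRNA cells (SD, n = 3 each), or 2.28-fold (log2 fold change 1.19, SE 0.03, 95% interval 219 to 237% of control). A log2 fold change as high was reached by 0.911% of tested genes. Behind these values were 11219 to 13950 counts per Nop16 siRNA library and 6603 to 7517 per control siRNA library. By count, Neat1 ranked 154 to 165 among all genes in Nop16 siRNA libraries and 463 to 505 in control siRNA libraries.

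Malat1 (ENSMUSG00000092341, chr19:5795690-5802672, minus strand, 6983 exonic bases) had 1470, 1570 and 1570 CPM in Nop16 siRNA libraries, against 876, 987 and 975 CPM in control siRNA libraries. The lowest Nop16 siRNA value was well above the highest control value. The mean was 1540 ± 55.7 CPM in Nop16 siRNA cells and 946 ± 61 CPM in control siRNA cells (SD, n = 3 each), or 1.63-fold (log2 fold change 0.70, SE 0.0404, interval 154 to 172%). A log2 fold change as high was reached by 3.83% of tested genes. Malat1 took 0.146%, 0.156% and 0.155% of all counts in Nop16 siRNA libraries and 0.0881%, 0.0994% and 0.0981% in control siRNA libraries.

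The ratio of the RNAs also differed. Neat1 had 49.2, 45.9 and 48.2 counts per 100 Malat1 counts in Nop16 siRNA libraries, against 35.7, 32.8 and 34 in control siRNA libraries. The ratio needs no scaling between libraries, and its groups did not overlap. It comes from genes chosen with these counts known, and it was not tested.

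Short annotated elements inside the RNAs give a view of where along Neat1 the counts fell. Gm28006, Gm27505 and Gm27533 lie on the same strand within the first 1193 bases of Neat1, a stretch that both isoforms hold apart from a short annotated intron of the short isoform, which takes in the 3' end of Gm28006. The counting assigned a fragment to every gene it overlapped, so each element's count is part of the Neat1 count. Gm27533, of 152 bases, held 12.2 ± 0.0709% of the Neat1 count in Nop16 siRNA libraries and 12.1 ± 0.486% in control siRNA libraries (SD, n = 3 each). Gm27505, of 110 bases, held 11.1 ± 0.166% in Nop16 siRNA libraries and 10.7 ± 0.264% in control siRNA libraries, with overlap between libraries. Gm28006, of 122 bases, held 11.4 ± 0.287% in Nop16 siRNA libraries against 10.7 ± 0.305% in control siRNA libraries, without overlap.

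Each of these shares far exceeded the element's share of the 20771 bases, which was 0.53 to 0.732%. It also exceeded the element's length relative to the 3004-base short isoform, 3.66 to 5.06%. A fragment needs to overlap an element by only 10 bases to be counted, so an element draws on a window wider than itself. Fragment lengths are not recorded in the sources used here, so these shares do not give the proportion of the isoforms. Gm27694, of 86 bases inside Malat1, held 5.22 ± 0.138% of the Malat1 count in Nop16 siRNA libraries and 4.96 ± 0.0212% in control siRNA libraries, against 1.23% of its length. The 3 Nop16 siRNA shares of Gm27694 (5.12 to 5.38%) lay above the 3 control shares (4.94 to 4.98%). The differences in share between the groups, for all of these elements, were small and were not tested. Groups without overlap were common, at 52.5% of all tested genes in CPM.

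**Figure D2:**
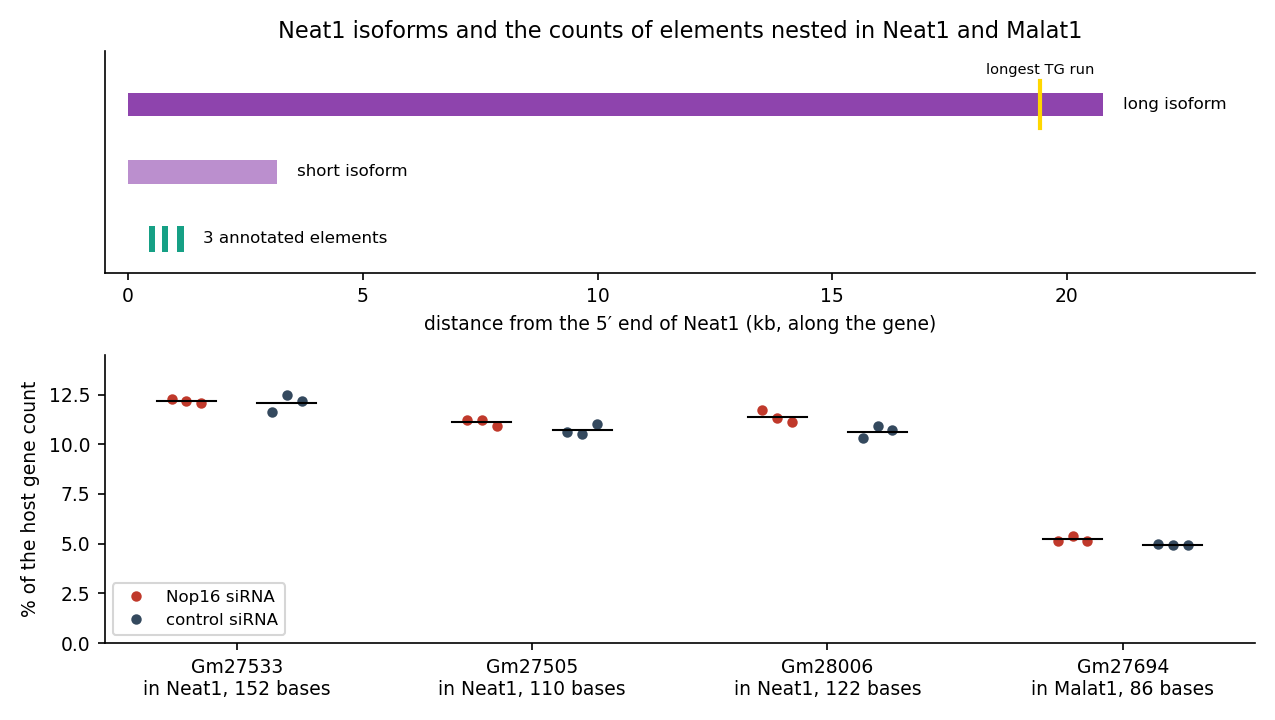
Top, the long and short Neat1 isoforms, the longest TG run and 3 nested elements by distance from the 5' end in kb along the gene. Bottom, counts of each nested element as a percentage of its host gene's count in 3 Nop16 siRNA libraries (left) and 3 control siRNA libraries (right), with means as lines. The shares within Neat1 lie between 10.3 and 12.5% in every library.

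The DBHS genes were each lower in Nop16 siRNA cells, at 78.3 to 83.1% of their control levels. Nono (ENSMUSG00000031311, chrX:101429318-101448591, plus strand) had 244, 243 and 234 CPM in Nop16 siRNA libraries, against 305, 306 and 310 CPM in control siRNA libraries. All Nop16 siRNA values lay below all control siRNA values, with little spread in either group. The mean was 240 ± 5.26 CPM in Nop16 siRNA cells and 307 ± 3.07 CPM in control siRNA cells (SD, n = 3 each), or 78.3% of control (log2 fold change -0.35, SE 0.0314, interval 75 to 81.7%).

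Sfpq (ENSMUSG00000028820, chr4:127021324-127037013, plus strand), which encodes the largest DBHS protein, needed with NONO for paraspeckles to form, had 171, 157 and 165 CPM in Nop16 siRNA libraries, against 199, 197 and 198 CPM in control siRNA libraries. The control libraries were tightly grouped and the Nop16 siRNA libraries more spread. The mean was 164 ± 6.85 CPM in Nop16 siRNA cells and 198 ± 1.18 CPM in control siRNA cells (SD, n = 3 each), or 83.1% of control (log2 fold change -0.27, SE 0.0351, interval 79.2 to 87.1%).

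Pspc1 (ENSMUSG00000021938, chr14:56720710-56778316, minus strand) was the least abundant of the 7 genes, with 278 to 370 counts per Nop16 siRNA library and 450 to 498 per control siRNA library. It had 18, 17 and 20.1 CPM in Nop16 siRNA libraries, against 22.5, 21.4 and 22.6 CPM in control siRNA libraries. The highest Nop16 siRNA library came close to the lowest control library, without overlap. The mean was 18.3 ± 1.59 CPM in Nop16 siRNA cells and 22.2 ± 0.65 CPM in control siRNA cells (SD, n = 3 each), or 82.9% of control (log2 fold change -0.27, SE 0.085, interval 73.9 to 93%). Without Nop16 siRNA replicate 2 the log2 fold change was -0.22 and Pspc1 was no longer past the threshold.

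Summed, the DBHS genes stood at 433, 417 and 419 CPM in Nop16 siRNA libraries and 526, 524 and 531 CPM in control siRNA libraries. The balance within the family varied less. Sfpq had 70, 64.8 and 70.4 counts per 100 Nono counts in Nop16 siRNA libraries, against 65.3, 64.3 and 63.7 in control siRNA libraries, and these ranges overlapped. Pspc1 had 7.36, 7 and 8.57 per 100 Nono counts in Nop16 siRNA libraries, against 7.38, 7 and 7.28 in control siRNA libraries, also with overlap.

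The ratio of the Neat1 gene count to the counts of the DBHS genes also differed. Neat1 had 167, 173 and 181 counts per 100 counts of Sfpq, Nono and Pspc1 together in Nop16 siRNA libraries, against 59.3, 61.7 and 62.5 in control siRNA libraries. This ratio of gene counts is not a ratio of molecules, since the genes differ in length and the proteins were not measured. Nor does the Neat1 count separate the long isoform, which is the scaffold, from the short one.

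**Figure D3:**
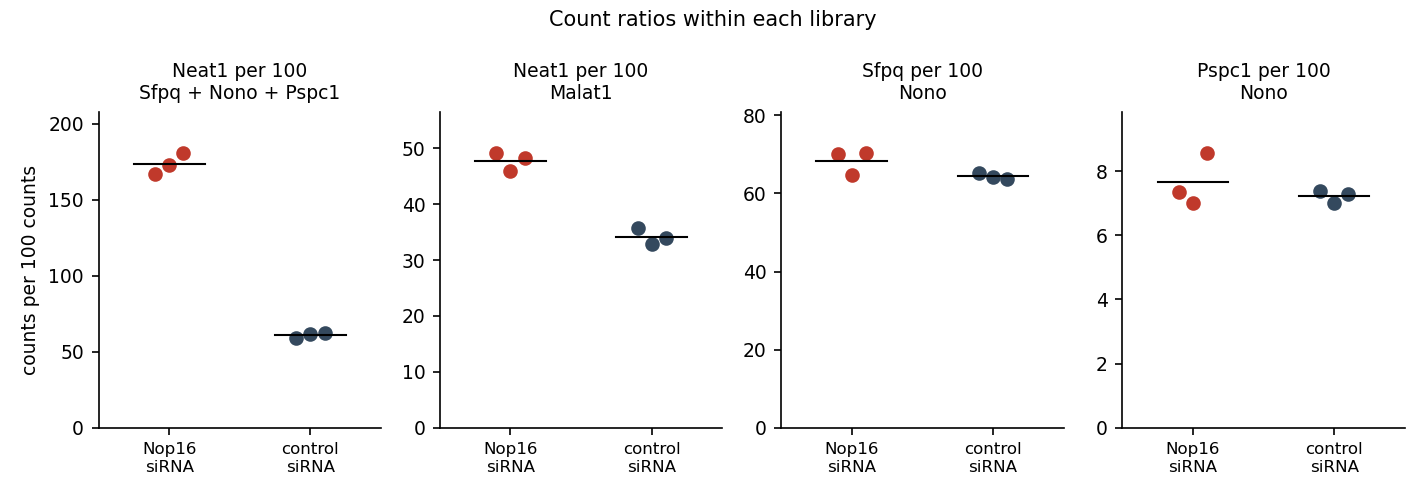
Count ratios within each library, in counts per 100 counts of the named denominator, for 3 Nop16 siRNA libraries (left in each panel) and 3 control siRNA libraries (right), with means as lines. Neat1 against the DBHS genes is 167 to 181 in Nop16 siRNA libraries and 59.3 to 62.5 in control siRNA libraries, while Sfpq and Pspc1 against Nono overlap between groups.

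Rbm14 (ENSMUSG00000006456, chr19:4800569-4811634, minus strand) lies on the same chromosome as Neat1 and Malat1. It had 39.1, 32 and 33.5 CPM in Nop16 siRNA libraries, against 53.6, 46.5 and 48.3 CPM in control siRNA libraries. Replicate 1 was the highest in each group, and the groups did not overlap. The mean was 34.9 ± 3.74 CPM in Nop16 siRNA cells and 49.5 ± 3.68 CPM in control siRNA cells (SD, n = 3 each), or 70.3% of control (log2 fold change -0.51, SE 0.0667, interval 64.2 to 77%). A log2 fold change as low was reached by 9.4% of tested genes.

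The overlapping gene Gm21992 shares 727 of the exonic bases of Rbm14, or 18.6%, on the same strand. Fragments in that stretch were counted for both. Gm21992 itself had 31.8 CPM in Nop16 siRNA cells and 34.4 CPM in control siRNA cells (log2 fold change -0.11, edgeR adjusted p = 0.182).

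Tardbp (ENSMUSG00000041459, chr4:148612382-148627019, minus strand) had 126, 130 and 134 CPM in Nop16 siRNA libraries, against 166, 159 and 163 CPM in control siRNA libraries. Each Nop16 siRNA library was below each control library. The mean was 130 ± 3.97 CPM in Nop16 siRNA cells and 162 ± 3.58 CPM in control siRNA cells (SD, n = 3 each), or 80.2% of control (log2 fold change -0.32, SE 0.0369, interval 76.3 to 84.3%). Masp2 on the opposite strand shares 1817 exonic bases (23.3%) with Tardbp, but averaged only 27.3 counts per library in this stranded data set.

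The promoters of the 3 DBHS genes and Rbm14 are shown because they held the CCAAT matches described after them, and Tardbp, whose RNA was lower too, had no such match. They come from RefSeq on GRCm38.p6 and run from 250 bases before to 50 bases after the annotated start, 300 bases each, and 6 of the 7 genes had an entry, the exception being Neat1. Capitals mark CCAAT (bound by NF-Y), GGGCGG (a GC box, bound by Sp proteins) and GCATGCGC (an NRF1 core), each searched on both strands, so ATTGG and CCGCCC are their other strand. CCAATTGG holds overlapping matches on both strands.
Sfpq promoter, chr4:127021051-127021350, plus strand: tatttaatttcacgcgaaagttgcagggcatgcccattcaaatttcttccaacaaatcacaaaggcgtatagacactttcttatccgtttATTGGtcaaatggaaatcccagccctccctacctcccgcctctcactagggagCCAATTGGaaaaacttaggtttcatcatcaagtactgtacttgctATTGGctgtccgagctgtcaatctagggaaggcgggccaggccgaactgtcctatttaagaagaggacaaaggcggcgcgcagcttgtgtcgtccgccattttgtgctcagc
Nono promoter, chrX:101429401-101429700, plus strand: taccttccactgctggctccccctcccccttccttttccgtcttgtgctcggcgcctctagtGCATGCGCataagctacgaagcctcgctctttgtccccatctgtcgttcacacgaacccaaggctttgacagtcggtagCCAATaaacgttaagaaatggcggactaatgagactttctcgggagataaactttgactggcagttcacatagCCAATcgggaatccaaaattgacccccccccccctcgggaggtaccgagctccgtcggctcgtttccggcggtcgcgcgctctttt
Pspc1 promoter, chr14:56778269-56778568, minus strand: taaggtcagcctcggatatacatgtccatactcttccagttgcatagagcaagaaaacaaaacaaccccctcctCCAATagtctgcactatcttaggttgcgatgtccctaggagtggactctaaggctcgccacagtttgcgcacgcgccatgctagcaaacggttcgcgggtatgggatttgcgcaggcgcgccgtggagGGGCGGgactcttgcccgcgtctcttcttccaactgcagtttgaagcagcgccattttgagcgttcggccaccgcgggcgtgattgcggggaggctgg
Rbm14 promoter, chr19:4811585-4811884, minus strand: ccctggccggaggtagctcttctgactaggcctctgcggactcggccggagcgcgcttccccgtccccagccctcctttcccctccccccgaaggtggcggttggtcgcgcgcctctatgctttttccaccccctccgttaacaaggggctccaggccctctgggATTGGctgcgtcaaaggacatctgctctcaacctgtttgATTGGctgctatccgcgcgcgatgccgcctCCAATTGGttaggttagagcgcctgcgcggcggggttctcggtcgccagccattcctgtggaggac

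CCAAT was found 4 times in the Sfpq promoter, 4 times in that of Rbm14, 2 times in that of Nono and 1 time in that of Pspc1, and it was not found in the windows of Tardbp and Malat1. Of 32851 promoters of this length, 37.4% held at least 1 match. GGGCGG was found in the Pspc1 window and 3 times in that of Tardbp, and 35.7% of promoters held it. GCATGCGC was found in the Nono window alone among the 6, and 2.71% of promoters held it. The windows of the 5 protein genes held 13 to 27 CpG dinucleotides and that of Malat1 held 10, against a median of 7. The RefSeq window of Nono begins inside the gene interval used for counting, whose first base is 101429318. A match is a run of letters, not a measured binding site.

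Per kb of exonic length, Malat1 was the highest of the 7 genes in both groups, at 220 ± 7.98 CPM per kb in Nop16 siRNA cells and 135 ± 8.73 in control siRNA cells. Nono followed with 54.9 ± 1.2 in Nop16 siRNA cells and 70.2 ± 0.702 in control siRNA cells. Neat1 stood at 35.3 ± 0.986 CPM per kb in Nop16 siRNA cells, within the spread of Sfpq at 34.6 ± 1.44. In control siRNA cells Neat1 was at 15.5 ± 0.473, below Sfpq at 41.7 ± 0.248 and Tardbp at 20.8 ± 0.459.

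The level of Neat1 per kb depends on which isoform the fragments came from. Divided by the 3004 bases of the short isoform, it would be 244 ± 6.82 CPM per kb in Nop16 siRNA cells and 107 ± 3.27 in control siRNA cells. Tardbp in Nop16 siRNA cells was at 16.7 ± 0.509. Rbm14 was at 8.91 ± 0.957 in Nop16 siRNA cells and 12.6 ± 0.942 in control siRNA cells, and Pspc1 was the lowest, at 3.2 ± 0.277 in Nop16 siRNA cells and 3.87 ± 0.113 in control siRNA cells. Other neighbours in the order were separated by more than their SDs.

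**Figure D4:**
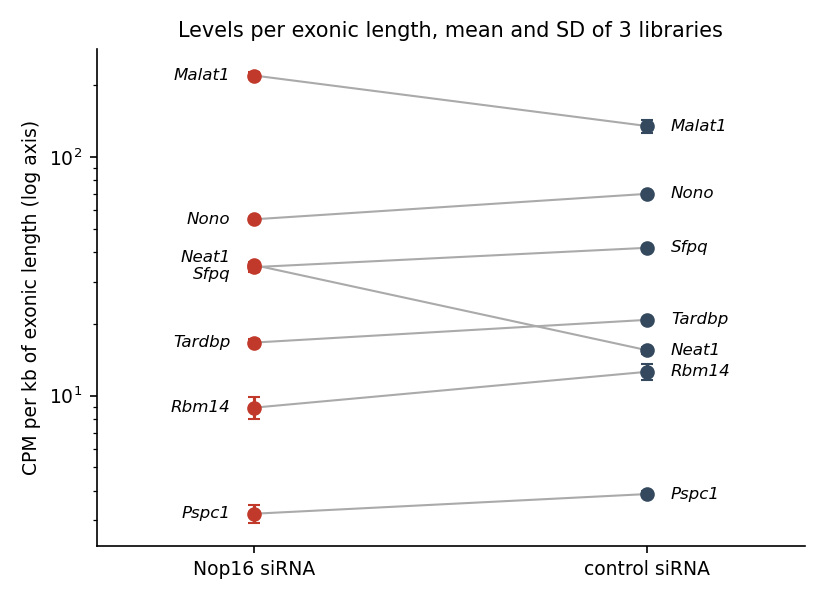
Level of the 7 genes in CPM per kb of exonic length (log axis), mean and SD of 3 libraries, in Nop16 siRNA cells (left) and control siRNA cells (right). Neat1 meets Sfpq (35.3 and 34.6 CPM per kb) in Nop16 siRNA cells and lies below Tardbp in control siRNA cells.

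Near-identical copies could share reads with Nono and Tardbp, since multi-mapped fragments were counted. Gm8806, 97.2% identical to Nono over its aligned bases, averaged 36.7 counts in Nop16 siRNA libraries and 61 in control siRNA libraries, beside 3779 to 4316 counts of Nono in Nop16 siRNA libraries and 6179 to 7111 in control siRNA libraries. The other copies found, Gm5171 of Nono and Gm13886 of Tardbp, averaged at most 6 counts in either group, and Gm9662 and Gm9547 had 0. Gm12940 shares 216 exonic bases (4.55%) with Sfpq on the same strand and fell (22.9 CPM in Nop16 siRNA cells, 32 CPM in control siRNA cells, log2 fold change -0.49, edgeR adjusted p = 2.08e-07).

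Among 35 tested genes of 40 for other paraspeckle proteins, 5 rose and 19 fell, and the median log2 fold change was -0.17, beside 23% higher, 22.4% lower and a median of 0 over all genes. Amer1, a regulator of Wnt signalling, fell to 6.7 ± 0.965 CPM in Nop16 siRNA cells, against 10.9 ± 0.684 CPM in control siRNA cells (log2 fold change -0.70, edgeR adjusted p = 5.87e-06). Hnrnpul1, an RNA-binding protein also known in DNA repair, fell to 159 ± 1.75 CPM in Nop16 siRNA cells, against 232 ± 5.73 CPM in control siRNA cells (-0.55, adjusted p = 3.3e-21). Zc3h6, a zinc finger gene, fell (-0.55, adjusted p = 8.79e-05), while the splicing regulator Rbm4b rose to 11 ± 1.9 CPM in Nop16 siRNA cells, against 7.5 ± 0.233 CPM in control siRNA cells (0.55, adjusted p = 0.000229).

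The next 4 genes were picked after their values were seen, because human paraspeckles depend on their products. Hnrnpk, whose product favours the long NEAT1 isoform by blocking use of the early poly(A) site, stood at 500 ± 15.3 CPM in Nop16 siRNA cells and 498 ± 8.22 CPM in control siRNA cells (log2 fold change 0.01, edgeR adjusted p = 0.873). Dazap1 fell (-0.28, adjusted p = 7.73e-07) and so did Hnrnph3 (-0.35, adjusted p = 0.00258). Smarca4, a chromatin remodelling ATPase, rose to 135 ± 3.7 CPM in Nop16 siRNA cells, against 109 ± 1.58 CPM in control siRNA cells (0.32, adjusted p = 2.57e-10).

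For the nuclear speckles in which Malat1 resides, 1 of 24 tested factors rose and 16 fell, beside 23% higher and 22.4% lower over all genes, with a median log2 fold change of -0.13. The mRNA export factor Alyref fell to 48.8 ± 1.26 CPM in Nop16 siRNA cells, against 68.1 ± 1.73 CPM in control siRNA cells (-0.48, edgeR adjusted p = 8.88e-12). Luc7l3 (-0.39, adjusted p = 1.35e-12), Srsf1 (-0.31, adjusted p = 1.57e-11) and Srrm1 (-0.29, adjusted p = 1.77e-10), which all act in splicing, also fell. The exception was Son, a core scaffold of speckles, at 243 ± 5.54 CPM in Nop16 siRNA cells and 217 ± 3.19 CPM in control siRNA cells (0.16, adjusted p = 3.81e-05).

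Of 27 tested genes for 3' end formation, which include cleavage factors and RNase P subunits, 5 rose and 5 fell, and the median log2 fold change was 0.05. These shares were no higher than the 23% and 22.4% over all genes. The shared RNase P and MRP subunit genes Pop7 (0.39, edgeR adjusted p = 0.0152) and Pop5 (0.34, adjusted p = 0.00196) rose. Pabpn1, the nuclear poly(A)-binding protein gene, fell to 78.2 ± 3.23 CPM in Nop16 siRNA cells, against 96.5 ± 1.82 CPM in control siRNA cells (-0.30, adjusted p = 5.92e-08). Cstf3, a cleavage stimulation factor, fell (-0.29, adjusted p = 0.0111). Cstf3 lost its call without Nop16 siRNA replicate 1 (-0.19), control siRNA replicate 1 (-0.25) or control siRNA replicate 2 (-0.24), and without either of those controls 3 rather than 5 genes of the list fell. Pop7 lost its call without Nop16 siRNA replicate 3 (0.28).

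Among 13 genes for partners of NEAT1 in DNA sensing and for retention of edited RNA, 3 rose and 4 fell, with a median of -0.05, beside 23% higher and 22.4% lower over all genes. Hexim1, whose product joins NEAT1 in a DNA-sensing complex in human cells, rose to 124 ± 2.84 CPM in Nop16 siRNA cells, against 80.5 ± 3.76 CPM in control siRNA cells (0.62, edgeR adjusted p = 1.78e-19). Carm1, an arginine methyltransferase that acts on NONO, fell to 30.9 ± 1.28 CPM in Nop16 siRNA cells, against 54.9 ± 2 CPM in control siRNA cells (-0.83, adjusted p = 4.9e-18). Slc7a2, the mouse arginine transporter gene known for a nuclear transcript held in paraspeckles, rose (0.49, adjusted p = 2.95e-06), and Matr3, a nuclear matrix protein that binds edited RNA with SFPQ and NONO, fell (-0.31, adjusted p = 2.14e-08). The counts per gene do not separate the nuclear transcript of Slc7a2.

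Of 11 tested RNA-binding protein genes related to TDP-43 or linked to amyotrophic lateral sclerosis, 9 fell and the other 2, Atxn2 (-0.13, edgeR adjusted p = 0.142) and Elavl1 (-0.01, adjusted p = 0.893), did not pass the test. The median was -0.26, and over all genes 22.4% were lower. Tial1 (-0.39, edgeR adjusted p = 7.42e-11), Hnrnpa3 (-0.35, adjusted p = 9.17e-12), Hnrnpc (-0.32, adjusted p = 6.1e-11) and Hnrnpa2b1 (-0.31, adjusted p = 1.41e-13) had the largest changes. Their log2 differences lay close to the -0.32 of Tardbp itself.

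Of 12 tested genes of 20 for other regulatory long noncoding RNAs, 4 rose and 4 fell, beside 23% higher and 22.4% lower over all genes, with a median of 0.05 and a highest log2 fold change of 0.40. Mir22hg, a microRNA host gene, rose to 46 ± 1.81 CPM in Nop16 siRNA cells, against 34.7 ± 3.54 CPM in control siRNA cells (0.40, edgeR adjusted p = 5.78e-07). Oip5os1 fell to 55.4 ± 5.05 CPM in Nop16 siRNA cells, against 93.5 ± 3.62 CPM in control siRNA cells (-0.75, adjusted p = 9.31e-19). Jpx, an activator of Xist, fell at a low level (-0.83, adjusted p = 0.00215), as did the microRNA host gene Mir17hg (-0.61, adjusted p = 0.00081).

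The 4 transcription factors listed as reported regulators of Neat1 showed no common direction. Epas1, a hypoxia-inducible factor, rose to 187 ± 5 CPM in Nop16 siRNA cells, against 146 ± 2.89 CPM in control siRNA cells (0.35, edgeR adjusted p = 5.49e-13). Atf2 fell (-0.27, adjusted p = 0.000543). Trp53, at 169 ± 1.53 CPM in Nop16 siRNA cells and 171 ± 6.93 CPM in control siRNA cells, and Hsf1, at 35.1 ± 1.25 CPM in Nop16 siRNA cells and 33 ± 1.85 CPM in control siRNA cells, did not pass the test (adjusted p = 0.741 and 0.324). These are RNA levels and say nothing of the activity of the proteins.

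**Figure D5:**
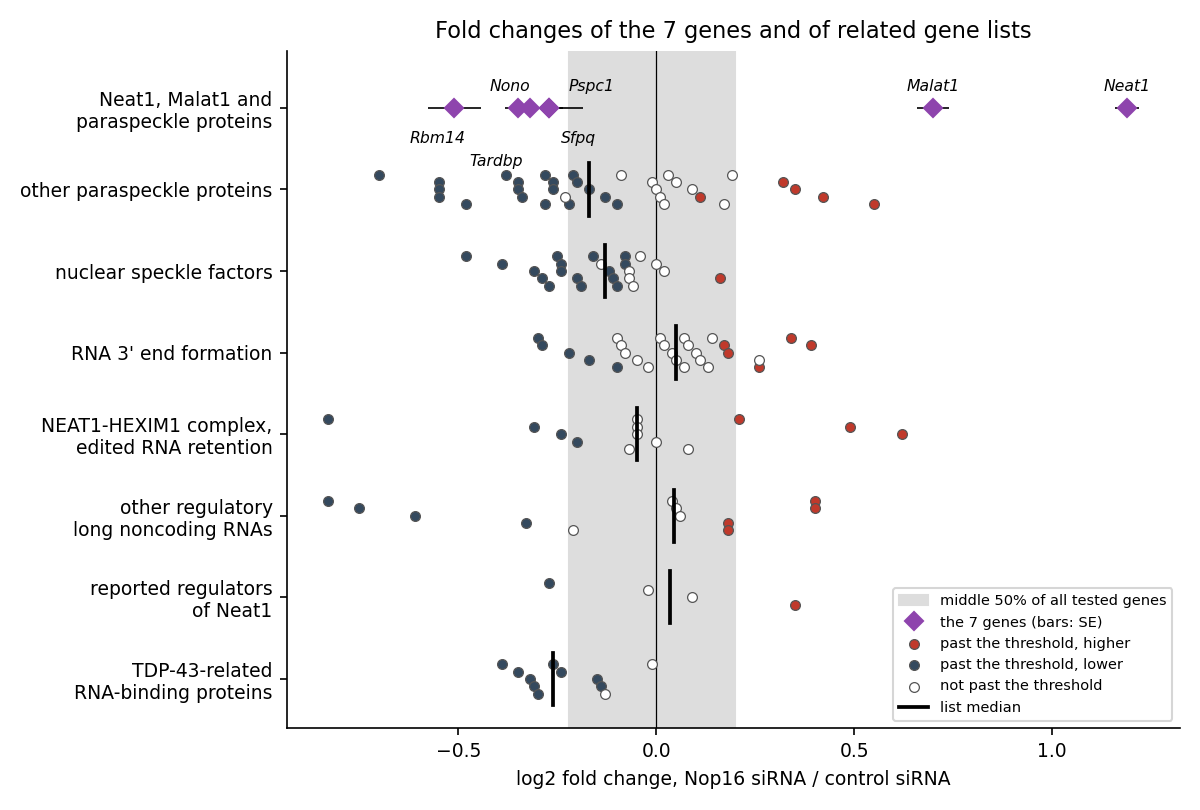
Log2 fold change (Nop16 siRNA over control siRNA) of the 7 genes, with SE bars, and of each tested gene in 7 related lists, coloured by call, with list medians as black lines. The grey band is the middle 50% of all tested genes, from -0.22 to 0.20; Neat1 and Malat1 lie to the right of every listed gene.

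Among themselves, the protein genes had more alike profiles than the RNAs did, by a measure that takes in the difference between the groups. Genes with similar log2 fold changes therefore score as alike. The RNAs and protein genes were chosen with their group differences known. Their likeness values are thus a description, and no separate evidence that these genes vary together. Likeness was the root mean square difference of log2 CPM, centred per gene, over the 6 libraries. It was 0.246 between Neat1 and Malat1, 0.0504 (Nono and Tardbp) to 0.168 (Pspc1 and Rbm14) between protein genes, and 0.493 to 0.856 between an RNA and a protein gene. By the same measure the genes most like Neat1, at a mean of at least 5 CPM, were Gm6166 (0.0285), the chemokine gene Ccl3 (0.0347) and the adhesion molecule gene Icam1 (0.0521). Ccl3 had 178 ± 5.9 CPM in Nop16 siRNA cells and 76.9 ± 1.83 CPM in control siRNA cells, and Icam1 had 103 ± 3.72 CPM in Nop16 siRNA cells and 46.8 ± 1.46 CPM in control siRNA cells.

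Closest to Malat1 were Gm5884 (0.023), Rhbdd2 (0.0336) and Acp2, a lysosomal acid phosphatase gene (0.0388). Prpf8, a core spliceosome gene, and Hnrnpc were closest to Tardbp (0.00975 and 0.00998). Mcrs1 and the ATP synthase gene Atp5h were closest to Nono (0.0159 and 0.0169), Gm5559 and the transcription factor gene Klf4 to Sfpq (0.0153 and 0.0154), Msl3 and Tmem86a to Pspc1 (0.0126 and 0.0167), and Gm4617 and Rpe to Rbm14 (0.046 and 0.0467). These genes were chosen by that measure, so no test of their differences is given.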

How the data were processed

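The deposited values are raw fragment counts per gene for 6 libraries. Per the file headers they were made with featureCounts 2.0.1 on filtered Ensembl release 101 models of GRCm38, with strand setting 2, a minimum overlap of 10 bases and properly paired fragments, counting multi-mapped and multi-overlapping fragments for each gene. A fragment can therefore count more than once. The submitters' processing notes name Trim Galore and HISAT2 2.2.1. The kit was directional and poly(A)-selecting, per the labels' protocols.

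In R 4.3.3, edgeR 4.0.16 was run with its quasi-likelihood test, robust dispersion, TMM scaling and filterByExpr, with Benjamini-Hochberg adjustment over 14269 genes and a threshold of 0.05. The SE was derived from the log2 fold change and its F statistic, and 95% intervals are normal intervals from it. Symbols matched 55141 of 55401 identifiers. Copies were sought with BLAST 2.17.0 (at least 85% identity over 50% of the copy and 200 bases). Alternatives used DESeq2 1.42.0, limma 3.58.1 (voom) and other scalings, filters and library sets.

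The 7 genes and the lists were chosen with earlier results of these data known. Some genes are not reported here. Named list genes are up to 4 past the threshold with the largest change. Libraries of a group, compared pairwise, gave a chi-square per degree of freedom of 2.52 to 3.12. How counting a fragment more than once bears on this value was not tested. All libraries were kept as separate samples. Intervals cover the spread between these libraries only.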

Additional observations from a re-analysis of the deposited data

How the results depend on the processing

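Across 17 alternatives (scaling, filter, tool, dispersion, replicate block, thinning, each library left out), all 7 genes kept their direction. Log2 fold changes ran from 1.16 to 1.21 for Neat1, 0.65 to 0.73 for Malat1, -0.30 to -0.24 for Sfpq, -0.38 to -0.34 for Nono, -0.34 to -0.22 for Pspc1, -0.59 to -0.45 for Rbm14, -0.34 to -0.30 for Tardbp and -2.22 to -2.11 for Nop16. Pspc1 missed the threshold in 1 of them, without Nop16 siRNA replicate 2. The 7 genes were selected on these data, so their calls here describe stability and test nothing. Over all genes, 2864 to 3290 were higher and 2817 to 3470 lower. Of 391 comparisons of counts and main values with an alternative, 388 kept direction and call (counts within 1.5 times). The exceptions were Pspc1 as above (-0.34 to -0.22 with a library left out) and, 2 times, the genes for 3' end formation that fell (3 to 5). Cstf3 missed the threshold without Nop16 siRNA replicate 1 (adjusted p = 0.136), control siRNA replicate 1 (0.0659) or control siRNA replicate 2 (0.0778), and Pop7 without Nop16 siRNA replicate 3 (0.156). These fits use fewer samples. Genes that had not passed the test and lay near 0 changed sign without gaining a call. Hnrnpk was at -0.02 with library size only and at 0 with upper quartile scaling or thinning. Adgre1 was at -0.02 with library size only or thinning and at 0 with upper quartile scaling, no filter or limma-voom. With a library left out, Hnrnpk ran from -0.01 to 0.03, Trp53 from -0.04 to 0.02, Elavl1 from -0.05 to 0.03 and Adgre1 from -0.05 to 0.08. Another scaling moved the median of all genes by at most 0.023. The replicate numbers did not pair the samples (correlation of same-numbered deviations 0.0205, -0.0206 and -0.0236). With the replicate number as a block, 3241 genes were higher and 3188 lower, and none of the 68 genes fitted with it, among them the genes named with a call, changed direction or call. Low counts limit the precision of Pspc1 and Jpx, and gene counts cannot resolve the isoforms of Neat1.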

Other observations

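Some other genes within 50 kb of Neat1 or Malat1 are given as values, chosen after the counts were seen. Slc25a45, a mitochondrial carrier gene on the opposite strand, rose to 66.2 CPM in Nop16 siRNA cells, against 39.9 CPM in control siRNA cells (log2 fold change 0.73, SE 0.0575, edgeR adjusted p = 8.44e-17). Frmd8, upstream of Neat1 on the same strand, had 68 CPM in Nop16 siRNA cells and 65.4 CPM in control siRNA cells (0.05, adjusted p = 0.404). Ltbp3 averaged 7 counts and was not tested, and the antisense genes Gm37376 and Frmd8os averaged 4.33 and 1.33 counts.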
